A study of Mus musculus with 15 samples.

Results

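Interferon-response genes and the genes of MHC class I presentation were followed in mouse ileal organoids given vehicle or 1 of 4 bile acid pools. The 45 genes were taken from a fixed list, not by a threshold on these data, though it was chosen with earlier results of these data known. They were looked up among the 23420 gene symbols of the deposited count files. By symbol 44 were found, and the 45th, Ifi27, was taken from Ifi27l1, the files' symbol for the gene that RefSeq now calls Ifi27. RefSeq also lists Ifi27 as an older name of Ifi27l2a, so the identity of this member is not settled. They fall into 13 genes of antigen presentation, 4 interferon transcription factors and 28 antiviral genes, and 44 passed the filter on low counts. The gene left out was Gbp3, which stayed at or below 0.273 CPM (the read count relative to the library's TMM-scaled total) in every library.

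Organoids are epithelial cultures grown from stem cells, here from ileal crypts of C57BL/6 mice at passage 2. Each of the 5 groups has 3 libraries (a, b and c), made after 24 h in DMEM that held 0.2% bovine albumin. One group received vehicle. The pools are set apart by the species whose bile acids they imitate and by their share of 12α-hydroxylated bile acids: H10 and H90 are human-like with 10% or 90%, and M10 and M90 are mouse-like with 10% or 90%. What else the pools held, and at which concentration, was not given. Whether a, b and c are separate animals or cultures was not stated either, so p-values measure the spread between these libraries, which may be technical.

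Class I molecules show peptides from inside the cell to cytotoxic T cells. The proteasome cuts the peptides, the TAP transporter carries them into the endoplasmic reticulum, tapasin helps to load them, and a heavy chain paired with β2-microglobulin takes them to the surface. Interferons bind their receptors, JAK kinases phosphorylate STAT proteins, and a complex that holds STAT2 and IRF9 binds the interferon-stimulated response element (ISRE) in the promoters of antiviral genes, while dimers of STAT proteins bind the gamma-activated site (GAS). The epithelium of the small intestine is known for its response to type III interferon, and part of the interferon genes and class I genes can also be expressed without any interferon.

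Library totals ran from 11245807 to 28989526 counts, so that 3 counts, the limit that a count of 0 allows, stood for 0.102 to 0.254 CPM. This limit covers counting error only. A transcript of liver, Mup20, split the libraries in a way that the groups do not: it lay at 21.6 to 36.3 CPM in 7 libraries (vehicle, H10 and H90 a) and at 0.339 to 0.603 CPM in the other 8 (all of M10 and M90, with H90 b and c). Col1a1, a mesenchymal marker, split them in the opposite direction, at 0 to 0.108 CPM in those 7 libraries and 3.82 to 8.21 CPM in the other 8. H10 minus vehicle and M90 minus M10 lie within 1 of these library sets, whereas M10 and M90 against vehicle cross them. The labelled tissue was checked on markers, whose sums are scaled by library size alone and not by TMM. All 8 of 8 epithelial genes were present, with a sum of 12837 to 15799 CPM. The 8 mesenchymal markers summed to 3.51 to 16 CPM and the 4 endothelial markers to 0.291 to 1.72 CPM. Of 16 leukocyte markers in the files 7 were at 0 counts in all libraries (among them Cd3g, Cd8a, Itgax, Gzma, Gzmb and Nkg7) and 12 were under 1 CPM everywhere. The summed leukocyte level was 47.5 to 53.5 CPM in vehicle, 15.1 to 19.7 (H10), 21.7 to 33.5 (H90), 9.2 to 12.4 (M10) and 12.1 to 16.8 (M90). In vehicle most of it came from Lcp1 (mean 38.6 CPM, 4.01 to 42.1 over all libraries). In M10 the mean of Lcp1 was 5.45 CPM beside 4.46 for Itgam, and in M90 6.98 beside 4.66.

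The promoters were searched for exact patterns of letters, so a partial match was not counted. RefSeq windows of 300 bases, from 250 before to 50 after the start, were at hand for 34 of the 45 genes on build GRCm38.p6. An ISRE core was searched as GAAA, any 2 bases, GAAA on both strands, and a GAS as TTC, any 3 bases, GAA, which reads the same on both strands. The ISRE core stood in 15 of 34 windows (44.1%), against 3.99% of the windows of all 27025 genes that have one. By arm it was found in 12 of 20 antiviral windows, 2 of 10 of antigen presentation and 1 of 4 of the transcription factors (Stat2). The GAS stood in 8 of 34 windows (23.5%), against 9.55% of all. A match is a description of letters, not a site in use.

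The 150 bases before the start are shown for both antigen presentation genes with a match, for H2-K1 (at one of its RefSeq starts) as the gene of that arm with the most counts, and for 3 antiviral genes, 5′ to 3′ on the strand of the gene, with the ISRE core in capitals and all else in lower case. B2m lies on the plus strand (chr2:122147537-122147686), H2-T23 (chr17:36032702-36032851) and H2-K1 (chr17:34000348-34000497) on the minus strand. Isg15 (chr4:156200819-156200968) and Oas3 (chr5:120777660-120777809) lie on the minus strand and Ifit1 (chr19:34640739-34640888) on the plus strand.
B2m: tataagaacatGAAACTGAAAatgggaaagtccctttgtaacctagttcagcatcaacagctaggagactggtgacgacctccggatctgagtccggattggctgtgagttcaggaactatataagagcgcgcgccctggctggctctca
H2-T23: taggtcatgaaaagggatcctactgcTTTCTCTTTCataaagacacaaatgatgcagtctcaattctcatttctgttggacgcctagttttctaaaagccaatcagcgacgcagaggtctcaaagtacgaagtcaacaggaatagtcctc
H2-K1: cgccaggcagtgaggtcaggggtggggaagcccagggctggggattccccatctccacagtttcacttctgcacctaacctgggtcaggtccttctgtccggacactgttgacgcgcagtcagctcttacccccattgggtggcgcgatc
Isg15: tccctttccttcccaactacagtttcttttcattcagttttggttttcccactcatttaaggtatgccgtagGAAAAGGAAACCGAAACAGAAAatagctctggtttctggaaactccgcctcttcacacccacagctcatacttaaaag
Ifit1: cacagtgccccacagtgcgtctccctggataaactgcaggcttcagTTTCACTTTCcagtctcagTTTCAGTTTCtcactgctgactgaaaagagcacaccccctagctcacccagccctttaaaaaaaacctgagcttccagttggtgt
Oas3: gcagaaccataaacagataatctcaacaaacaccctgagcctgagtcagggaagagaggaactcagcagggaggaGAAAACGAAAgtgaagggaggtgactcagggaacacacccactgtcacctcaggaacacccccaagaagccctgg
Isg15 holds 3 overlapping matches, which begin 78, 72 and 66 bases before the start, and Ifit1 holds a pair, at 104 and 85 bases. In B2m the match begins 139 bases and in H2-T23 124 bases before the start. The windows of H2-K1, H2-D1 and H2-Q2, and of Trim25, Oasl1 and Irf7, hold no ISRE core, which says only that these letters are not in the window. H2-K1 and H2-D1 do hold tttcacttct, which shares its first bases with the core read on the other strand. This partial match is left out of the counts, so the split by arm depends on the exact pattern.

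The members were on the whole higher in the pools than in vehicle. In the test of the mean of the 4 pools against vehicle (edgeR quasi-likelihood, Benjamini-Hochberg adjusted p under 0.05 over the 13159 genes tested), 27 of 44 were higher and 0 lower, where 27.7% of all genes tested were higher and 30.3% lower. Their median log2 fold change was 0.58, and the median of all genes tested lay between -0.03 and 0.04 in each of the 10 comparisons. In H10, 22 were higher and 1 lower (background 24% and 24.5%, median 0.56), and in H90, 16 were higher and 0 lower (11.7% and 9.86%, median 0.22). In M10, 29 were higher and 1 lower (31.2% and 33.3%, median 0.95), and in M90, 23 were higher and 0 lower (26.2% and 28.5%, median 0.60). The 29 in M10 include Oas2, which passed the filter on low counts through M10 alone. The 4 comparisons share the vehicle libraries, so their calls are not independent of each other. As the list was chosen with earlier results known, the excess over all genes is a description and no independent support.

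Scaling bears on the split between directions. Scaled by library size alone, the median of all genes was -0.29 in M10 (against -0.03) and -0.16 in the mean of the pools (against -0.01), and the members' calls were then 24 higher and 5 lower in M10 and 21 higher and 3 lower in the mean of the pools. The 3 lower were Psmb10, Bst2 and Cmpk2. Of the calls over all genes, 29.5% in M10 and 30.8% in the mean of the pools were then higher, against 48.4% and 47.7% with TMM. For the 32 members whose mean over all libraries reached 2 CPM, M10 had the highest of the 5 group means in 24, H90 the lowest of the 4 pools in 24, and vehicle the lowest of all groups in 21. This order was not counted for all genes. Of the 4 pools, M10 also had the most calls over all genes (31.2% higher and 33.3% lower) and H90 the fewest (11.7% and 9.86%), so the order may not be particular to the members.

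**Figure D1:**
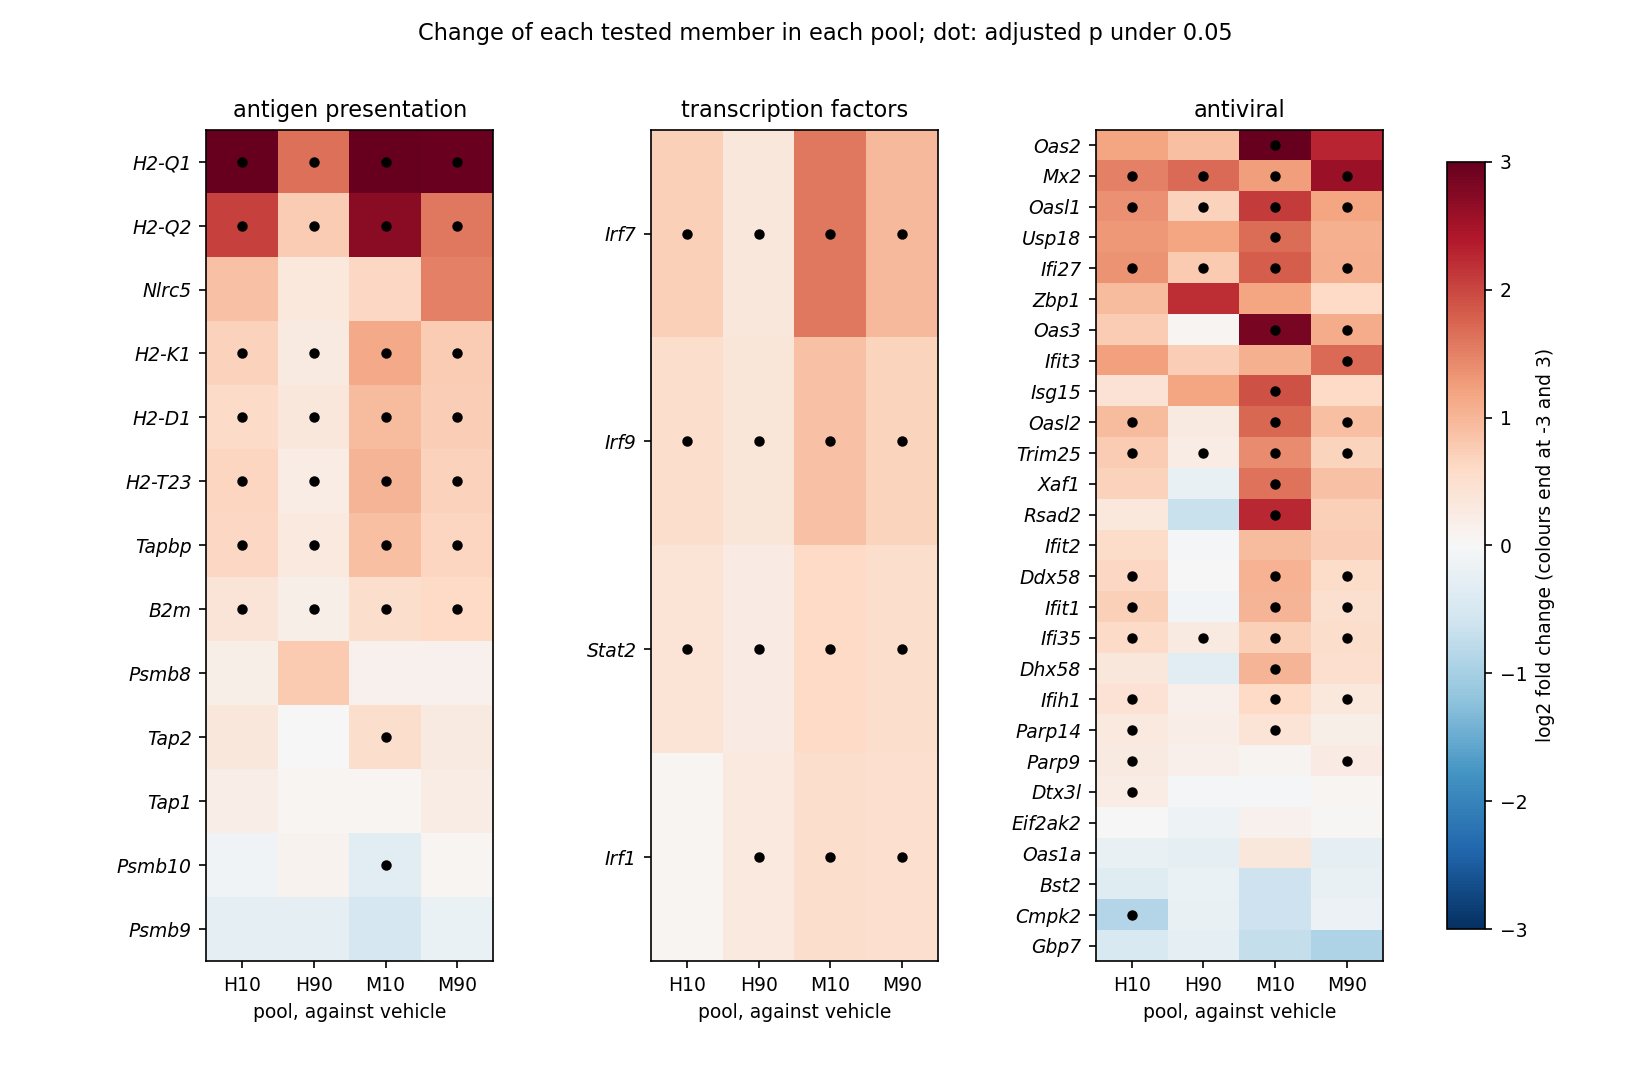
Log2 fold change against vehicle (colour, ending at -3 and 3) of the 44 tested members (rows, by arm) in each pool (columns); a dot marks an adjusted p under 0.05. The heavy chains, B2m and Tapbp carry dots in all 4 columns, while dots in the antiviral arm mark 12 higher genes for H10, 5 for H90, 17 for M10 and 12 for M90, with 1 lower gene in H10, Cmpk2.

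The class I heavy chains rose in every pool, 5 of 5 in each. H2-K1, a classical heavy chain of the H-2K locus (chr17:33996017-34000347 on GRCm38, minus strand), had 459, 497 and 483 CPM in vehicle, 785, 748 and 771 in H10, and 556, 600 and 596 in H90. It had 1059, 1064 and 1019 CPM in M10 and 839, 830.2 and 791 in M90. No pool library reached down to the vehicle range, and H90 stood nearest to it. The log2 fold change of H2-K1 was 0.68 (H10), 0.28 (H90), 1.13 (M10) and 0.77 (M90), and 0.71 (SE 0.0353, edgeR adjusted p = 1.53e-19) in the mean of the pools, with all 12 pool libraries above all 3 of vehicle.

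The largest changes of the arm were in a pair of Qa-region genes that lie near each other on chromosome 17, H2-Q1 (chr17:35320405-35325099) and H2-Q2 (chr17:35342242-35346762), both on the plus strand. H2-Q1 went from 5.71, 6.56 and 6.23 CPM in vehicle to 64.2, 64.8 and 67.8 in H10 and 124, 117 and 115 in M10. It had 16.6, 22.5 and 20.4 CPM in H90 and 49.4, 47.0 and 50.2 in M90. The 5 groups did not overlap and ran, from low to high, vehicle, H90, M90, H10, M10. This is a 10.6-fold rise in H10, 3.16-fold in H90, 19.1-fold in M10 and 7.86-fold in M90, and log2 3.07 (SE 0.0901, edgeR adjusted p = 2.21e-26) in the mean of the pools.

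H2-Q2 stood at 48.8, 46.6 and 47.3 CPM in vehicle, 194, 193 and 204 in H10, and 72.8, 86.7 and 81.2 in H90. It reached 311, 299 and 319 CPM in M10 and 143, 147 and 139.6 in M90. The order of the groups was that of H2-Q1, again without overlap. The fold was 4.14 (H10), 1.68 (H90), 6.52 (M10) and 3.02 (M90), and log2 1.78 (SE 0.0511, edgeR adjusted p = 1.6e-26) in the mean of the pools.

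The other classical heavy chain, H2-D1, rose by log2 0.58 (H10), 0.33 (H90), 0.95 (M10) and 0.74 (M90). H2-T23, which encodes the nonclassical Qa-1 molecule, rose by 0.65, 0.23, 1.02 and 0.70 in the same order of pools. Class I genes resemble each other, and how the counting treated reads that fit several genes was not given, so each of these values is uncertain. Of all stretches of 50 bases in their annotated exons, 9.63% were shared with another gene for H2-K1, 12.8% for H2-D1, 15% for H2-Q1, 16.1% for H2-Q2 and 13.6% for H2-T23. H2-Q2 shared 12.9% with H2-Q1.

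B2m encodes β2-microglobulin, the light chain common to all class I molecules, and shares no such stretch (0.0%). It had 377, 381 and 360.1 CPM in vehicle, 483, 474 and 499 in H10, and 404, 451 and 401 in H90. In M10 it stood at 536, 532 and 537 CPM and in M90 at 575, 564 and 550.2. Every pool library lay above vehicle, and M90 was the highest group for this gene. The rise was 1.30-fold (H10), 1.12-fold (H90), 1.44-fold (M10) and 1.51-fold (M90). Tapbp, which encodes tapasin, rose by log2 0.61, 0.29, 0.90 and 0.64 in H10, H90, M10 and M90. The H90 call of B2m was lost without H90 b (log2 0.11), and those of both B2m and Tapbp were lost with a term for library set (0.11 and 0.20).

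**Figure D2:**
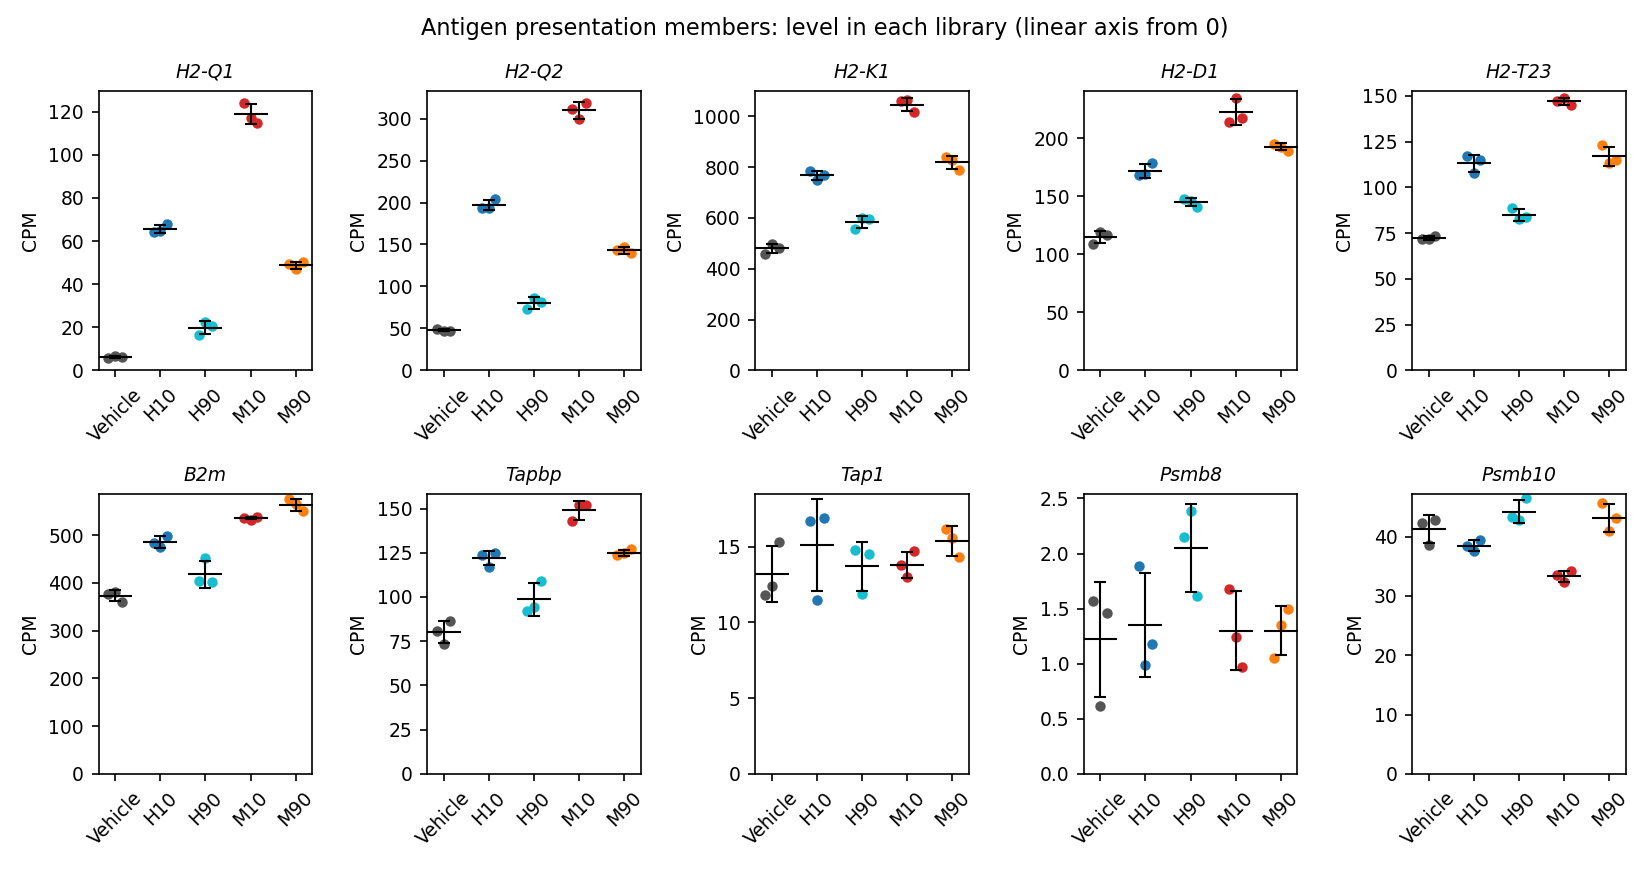
CPM in each library (points), with the group mean and SD (bars, n = 3 libraries), for 10 genes of antigen presentation; each panel has its own linear axis from 0. H2-Q1, H2-Q2 and H2-K1 are highest in M10 and lowest in vehicle, B2m is highest in M90, and Psmb10 is lowest in M10.

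Of the 6 members that make the peptides, move them or switch on class I genes, only Tap2 passed the test upward. Tap1, a subunit of the peptide transporter, had 11.8, 12.4 and 15.3 CPM in vehicle, 16.7, 11.5 and 16.9 in H10, 14.8, 11.9 and 14.5 in H90, 13.8, 13.0 and 14.7 in M10, and 16.2, 15.6 and 14.3 in M90. All groups overlapped with vehicle. Its log2 fold change in the mean of the pools was 0.13 (95% interval -0.11 to 0.38, edgeR adjusted p = 0.362). Tap2, the other subunit, was called in M10 alone among the single pools (0.53), and its call in the mean of the pools (0.28, adjusted p = 0.0443) was lost when 1 of 8 libraries was left out (vehicle b or c, H10 a or b, H90 a, M10 c, M90 b or c; 0.23 to 0.28).

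Psmb8, a catalytic subunit of the immunoproteasome, had 1.57, 0.615 and 1.46 CPM in vehicle, 1.89, 0.988 and 1.18 in H10, 2.15, 2.39 and 1.61 in H90, 1.68, 1.24 and 0.967 in M10, and 1.05, 1.35 and 1.5 in M90. These levels overlap except that H90 lay just above vehicle, and no pool passed the test (log2 0.30, 95% interval -0.49 to 1.08, in the mean of the pools). Psmb9, another such subunit, was not called in any pool either (-0.51 to -0.19). The third, Psmb10, fell by 0.31 in M10 (42.4, 38.6 and 42.8 CPM in vehicle, 33.5, 32.3 and 34.2 in M10), a call lost with a term for library set (-0.34, adjusted p = 0.0591). Scaled by library size alone, or without M10 c, Psmb9 was called lower in M10 as well (-0.77 in both). Nlrc5, the transactivator of class I genes, was close to the limit of detection in all libraries. It had 0.175, 0.0683 and 0.258 CPM in vehicle, 0.162, 0.468 and 0.274 in H10, 0.509, 0 and 0 in H90, 0.115, 0.214 and 0.458 in M10, and 0.703, 0.261 and 0.471 in M90, so a change in it was not detectable at this depth.

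All 4 transcription factors were higher in the mean of the pools. Irf7, the amplifier of type I interferon production, had 16, 15.7 and 12.6 CPM in vehicle, 26.3, 23.8 and 22.3 in H10, 17.8, 20.6 and 17.4 in H90, 44.8, 48.2 and 39.0 in M10, and 30.8, 29.7 and 26.2 in M90. H90 came close to vehicle without overlap, and M10 stood clear of all other groups. Its fold was 1.64 (H10), 1.26 (H90), 2.99 (M10) and 1.96 (M90), and log2 0.90 (SE 0.0977, edgeR adjusted p = 4.39e-10) in the mean of the pools.

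Stat2 and Irf9 encode parts of the complex that binds the ISRE. Stat2 had 31.5, 35.5 and 32.6 CPM in vehicle, 44.1, 47.7 and 42.0 in H10, 39.2, 41.2 and 37.0 in H90, 53.4, 50.2 and 46.7 in M10, and 45.7, 50.2 and 48.6 in M90. Irf9 had 15.5, 13.8 and 15.7 CPM in vehicle, 20.7, 23.3 and 20.6 in H10, 17.5, 19.8 and 20.7 in H90, 25.4, 25.8 and 31.3 in M10, and 20.5, 22.7 and 27.5 in M90. For both, all pool libraries lay above all vehicle libraries, and the 2 mouse-like pools overlapped each other. In the mean of the pools Stat2 rose by log2 0.45 (SE 0.0688, adjusted p = 7.43e-07) and Irf9 by 0.60 (SE 0.103, adjusted p = 3.9e-06).

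Irf1, a factor induced early by interferon gamma and a regulator of class I genes, had 22, 24.9 and 23.6 CPM in vehicle and 24.9, 24.4 and 25 in H10. It had 27.4, 31.8 and 27.4 CPM in H90, 33.3, 34.0 and 34.3 in M10, and 32.5, 35.6 and 32.7 in M90. H10 overlapped with vehicle (log2 0.07, 95% interval -0.13 to 0.27, not called), while the other 3 pools did not (0.30, 0.52 and 0.51, all called). The H90 calls of the factors are the least firm. That of Irf7 was lost without vehicle c, H10 b, H90 b or M90 b (log2 0.23 to 0.34), and that of Irf9 without any 1 vehicle library, H90 b or H90 c (0.30 to 0.40). That of Irf1 was lost without vehicle a, vehicle c or H90 b (0.22 to 0.29), and that of Stat2 in 10 of 15 such fits (0.20 to 0.24; vehicle a or c, H10 a, b or c, H90 a or b, M90 a, b or c). With a term for library set none of the 4 kept its call in H90, Irf1 also lost its calls in M10 (0.41), M90 (0.40) and the mean of the pools (0.27), and Irf9 lost its call in M90 (0.45).

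Antiviral genes moved less evenly, with 15 of 27 tested higher in the mean of the pools. Trim25, an E3 ligase that activates the RNA sensor RIG-I, had the most counts of this arm. It had 107, 110.1 and 96.6 CPM in vehicle, 180, 177 and 171 in H10, 120.4, 124 and 120.2 in H90, 301, 276 and 263 in M10, and 173, 159 and 164 in M90. M10 stood far above the rest, and H10 and M90 overlapped. Its rise was 1.68-fold (H10), 1.16-fold (H90), 2.68-fold (M10) and 1.58-fold (M90) (mean of the pools log2 0.76, SE 0.0467, adjusted p = 9.32e-17). The H90 call was lost without vehicle c (log2 0.16) and with a term for library set (0.20).

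Oasl1, a 2′-5′ oligoadenylate synthetase-like protein, had 17.8, 20.2 and 21.8 CPM in vehicle, 53.2, 46.2 and 54.7 in H10, 29.1, 35.1 and 33.9 in H90, 95, 90 and 69.7 in M10, and 49.2, 46.5 and 40.1 in M90. It rose by log2 1.36, 0.70, 2.09 and 1.18 in the 4 pools, and each of these calls held with a term for library set (1.36, 0.54, 1.84 and 0.93). Ifi27, an interferon-induced protein of internal membranes, had 8.86, 9.80 and 8.64 CPM in vehicle, 23.5, 24.7 and 21.3 in H10, 12.3, 16.2 and 19.7 in H90, 30.6, 32.7 and 33.1 in M10, and 18.9, 20.3 and 18.7 in M90. No pool library of either gene reached down to vehicle, and Ifi27 spread most in H90. Its folds were 2.54 (H10), 1.73 (H90), 3.52 (M10) and 2.11 (M90). With a term for library set the calls in H90 (log2 0.43) and M90 (0.54) were lost.

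Of the 5 members of the synthetase family, Oasl1 was higher in all 4 pools, Oasl2 in 3 and Oas3 in both mouse-like pools, while the call of Oas2 in M10 does not count as support, as described with its values. Oas3, a synthetase of 2′-5′ oligoadenylates, which switch on RNase L, was near 1 CPM in vehicle (1.46, 0.820 and 1.03) and H90 (1.10, 1.14 and 1.19). It reached 7.54, 10.7 and 5.19 CPM in M10, against 1.51, 2.29 and 1.73 in H10 and 3.32, 1.87 and 1.84 in M90. The rise in M10 was 7.22-fold (log2 2.85, SE 0.354, adjusted p = 6.53e-09). That in M90 was 2.15-fold, a call lost without vehicle b or M90 a (log2 0.78 to 0.92) and with a term for library set (1.03).

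Oas2 stayed under 0.7 CPM in every library, with 0, 0.0342 and 0.129 CPM in vehicle, 0, 0.156 and 0.235 in H10, 0, 0.271 and 0.0847 in H90, 0.536, 0.555 and 0.662 in M10, and 0.251, 0.217 and 0.428 in M90. It passed the filter through M10 alone, where it was called (log2 3.23, SE 1.11). The call was lost without vehicle a or vehicle b (2.81 to 2.93). The sign turned with a term for library set (-1.86), but that term is set by H90 a against H90 b and c. With H90 a at 0 for Oas2, this size has no meaning. Oasl2, a relative of Oasl1, rose in H10 (0.96), M10 (1.73) and M90 (0.91). Oas1a was called in no pool against vehicle, though in M10 with a term for library set (0.93), and 57.6% of its stretches of 50 bases are shared with Oas1g.

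Among sensors of viral RNA, Ddx58, which encodes RIG-I, rose by log2 0.61 in H10, 1.04 in M10 and 0.54 in M90, and in H90 stood at -0.02 (95% interval -0.21 to 0.17). Ifih1, which encodes MDA5, rose by 0.43, 0.59 and 0.31 in the same 3 pools, the last call being lost without vehicle c or M90 b (0.22 to 0.23). Dhx58, which encodes LGP2, was called in M10 alone among the single pools. Eif2ak2, the kinase PKR, had 0.00 in the mean of the pools (95% interval -0.16 to 0.16). Zbp1, a sensor of Z-form nucleic acids, was under 0.6 CPM in 14 libraries and at 1.95 CPM in H90 c.

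Isg15, the ubiquitin-like modifier that antiviral cells attach to proteins, is a low gene here and a variable one. It had 0.757, 0.820 and 0.645 CPM in vehicle, 0.485, 1.46 and 1.06 in H10, 1.21, 1.68 and 2.29 in H90, 2.79, 1.37 and 4.28 in M10, and 0.653, 1.69 and 1.03 in M90. Only H90 and M10 lay wholly above vehicle, and only M10 was called (log2 1.91, SE 0.519, adjusted p = 0.00159). Its call in the mean of the pools (1.03, adjusted p = 0.0433) was lost in 9 of 15 fits without 1 library (vehicle a, b or c, H10 b or c, H90 c, M10 a or c, M90 b; 0.93 to 1.12), and with a term for library set its value in M10 was 1.21 and no longer called. Usp18, the protease that removes ISG15, was called in M10 alone among the single pools, and not without vehicle a, vehicle b or M10 a (1.23 to 1.54).

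Ifit1, which binds viral RNA that lacks a methylated cap, had 9.09, 9.73 and 5.63 CPM in vehicle, 16.2, 12.0 and 11.9 in H10, 5.87, 9.60 and 7.79 in H90, 15, 18.7 and 16.4 in M10, and 12.0, 11.7 and 10.1 in M90. H90 overlapped with vehicle, and the other pools did not. It rose by log2 0.71 in H10, 1.03 in M10 and 0.47 in M90. The M90 call was lost without vehicle c, M90 a or M90 b (0.26 to 0.44), and the value with a term for library set was -0.11. The call in the mean of the pools (0.53) was lost without vehicle c (0.32).

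Not every antiviral gene rose. Bst2, which encodes tetherin and holds budding virus at the cell surface, had 5.36, 3.59 and 5.07 CPM in vehicle, 3.88, 3.02 and 3.96 in H10, 4.70, 3.96 and 3.30 in H90, 2.64, 3.80 and 2.70 in M10, and 4.82, 4.43 and 2.65 in M90. The groups overlapped and no pool was called (log2 -0.35 in the mean of the pools, 95% interval -0.79 to 0.09), although its window holds a pair of ISRE cores, 130 and 124 bases before the start. With library size or upper-quartile scaling it was called lower in M10 (-0.87 and -0.74). Cmpk2, a nucleotide kinase of mitochondria, was lower in H10 (-0.88). That call was lost without vehicle a, vehicle b or H10 b (-0.85 to -0.70).

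Mx2, of the Mx family of GTPases and annotated as a polymorphic pseudogene, is the one antiviral gene with its highest level in M90 that was called in all 4 pools (log2 1.5, 1.7, 1.26 and 2.59). It stayed under 4 CPM in every library. Its calls rest in part on vehicle b (0.137 CPM, against 0.932 and 0.645): without that library the calls in H10 (0.97), H90 and M10 were lost. The call in H90 was also lost without H90 a (1.18 to 1.43 over both) and that in M10 without M10 b or M10 c (0.74 to 1.21 over all 3).

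**Figure D3:**
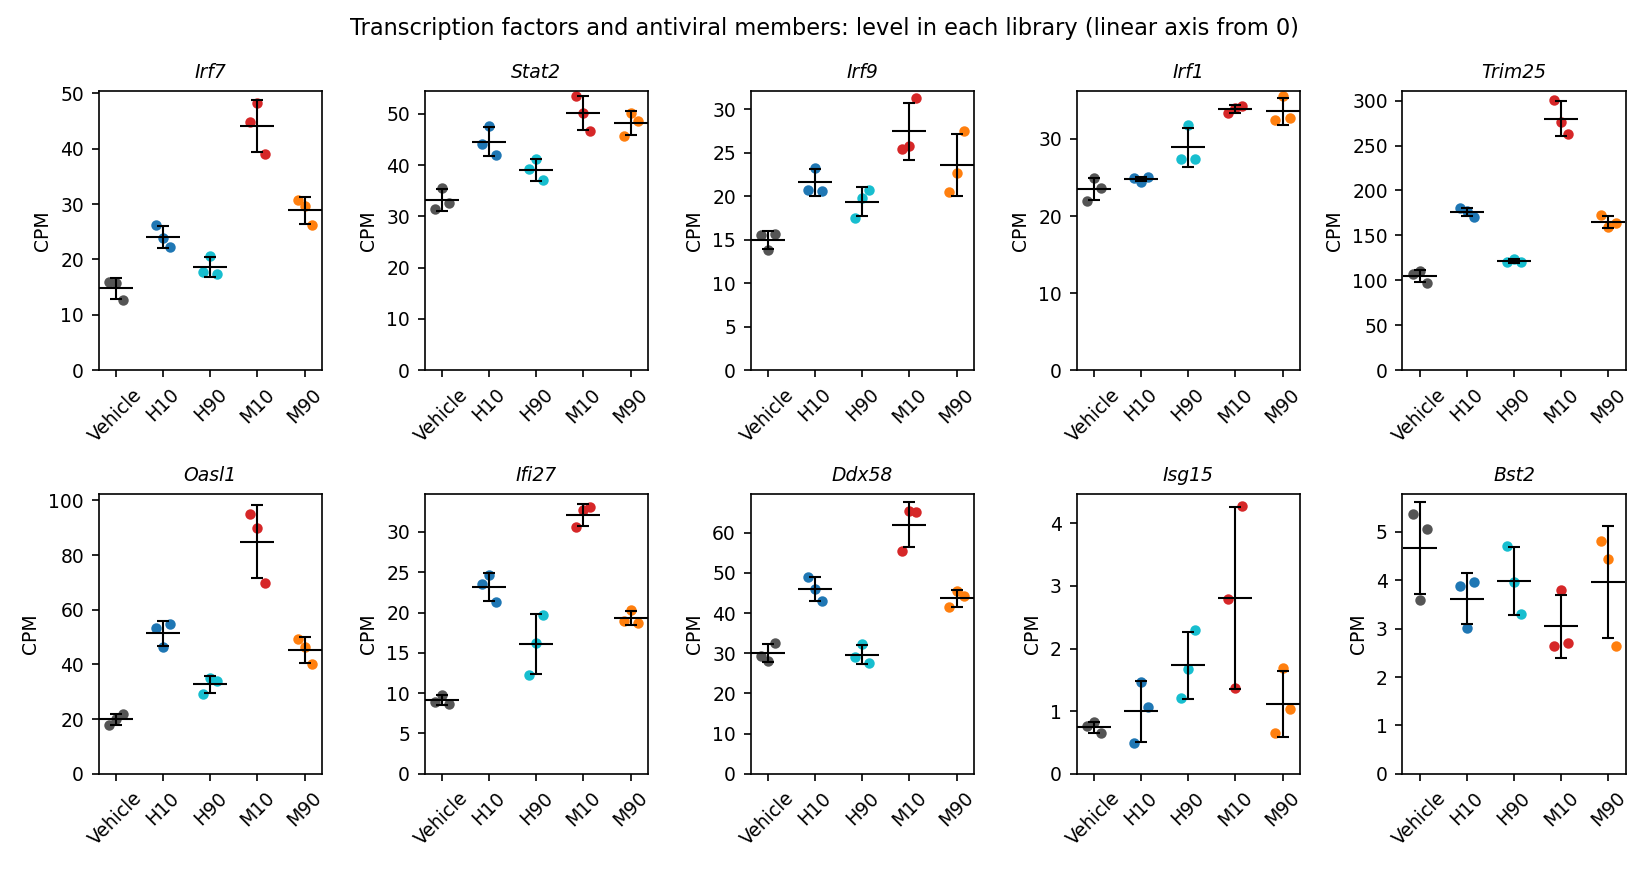
CPM in each library (points), with the group mean and SD (bars, n = 3 libraries), for the 4 transcription factors and 6 antiviral genes; each panel has its own linear axis from 0. Irf7, Trim25, Oasl1, Ifi27 and Ddx58 are highest in M10, Ddx58 in H90 overlaps with vehicle, and Bst2 overlaps throughout.

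The arms are set side by side by their counts and medians. In H90, 7 of 13 genes of antigen presentation were higher (median log2 0.28) and 5 of 27 antiviral genes (median 0.15), where 11.7% of all genes tested were higher. In M10 the counts were 8 of 13 (0.63) and 17 of 27 (1.04), against 31.2% of all genes. In H10 they were 7 of 13 (0.58) and 12 of 27 (0.57), against 24%, and in M90 7 of 13 (0.64) and 12 of 27 (0.60), against 26.2%. The 17 antiviral genes in M10 include Oas2, which passed the filter through M10 alone and does not count as support. With a term for library set the antiviral counts fell to 2 in H90, 10 in M10, 6 in M90 and 9, from 15, in the mean of the pools. Those of antigen presentation were 5, 9, 8 and 9, and in H10 both counts stood at 7 and 12. Calls over all genes, in either direction, fell with that term too, from 2840 to 1069 in H90 and from 8482 to 5809 in M10. They fell from 7199 to 3958 in M90 and from 7625 to 5196 in the mean of the pools. The added gene of antigen presentation was Nlrc5 in M10, M90 and the mean of the pools; that term is set by H90 a against H90 b and c, both at 0 for Nlrc5, so its fitted size has no meaning. The rise of the first arm was narrow: its 5 heavy chains, B2m and Tapbp were called in every pool, and of its 6 other members only Tap2 was called higher in any. Read by promoter, 9 of 14 tested members with a match in their window were higher in the mean of the pools (median 0.49), and 11 of 19 without (median 0.60). Whether the arms differ was not tested, since the genes of an arm are not replicates.

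The summed level of the 13 genes of antigen presentation was 1245 ± 19.2 CPM in vehicle (SD, n = 3), 1996 ± 48.2 (H10), 1506 ± 50.7 (H90), 2598 ± 17.8 (M10) and 2088 ± 44.2 (M90). No 2 groups overlapped, though H10 (1941 to 2033) and M90 (2040.2 to 2127) came within a few CPM of each other. The 28 antiviral genes summed to 429 ± 5.36 CPM in vehicle, 621 ± 11.4 (H10), 479.8 ± 21.2 (H90), 809 ± 25.1 (M10) and 590.4 ± 18.3 (M90). Here H10 lay above M90, again by a small gap. The 4 transcription factors summed to 86.5 ± 3.04 CPM in vehicle, 115 ± 4.73 (H10), 106 ± 6.48 (H90), 155 ± 3.69 (M10) and 134 ± 4.36 (M90). In all 3 arms M10 was the highest group and vehicle the lowest. H2-K1 made up 38.5 to 40.3% of the first sum and Trim25 24.4 to 34.6% of the second. Without them the group order of the means was the same (765, 1228, 922, 1551 and 1268 CPM for antigen presentation, and 324, 446, 358, 529 and 425 CPM for the antiviral genes, in vehicle, H10, H90, M10 and M90).

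Marker sums, again scaled by library size alone and not by TMM as the sums of the arms, differed between the groups as well. The leukocyte sum given above was highest in vehicle and lowest in M10. The summed level of 8 enterocyte genes was 11946 to 14153 CPM in vehicle, 16559 to 16817 (H10), 12135 to 12836 (H90), 25476 to 26596 (M10) and 17829 to 18690.2 (M90). That of 6 genes of crypts and cycling cells was 787 to 804 CPM in vehicle, 105 to 115 (H10), 449.9 to 536 (H90), 22.3 to 28.7 (M10) and 105 to 119 (M90). Their part in the results was not tested. In such bulk samples, fewer cells of a type and less RNA per cell cannot be told apart.

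**Figure D4:**
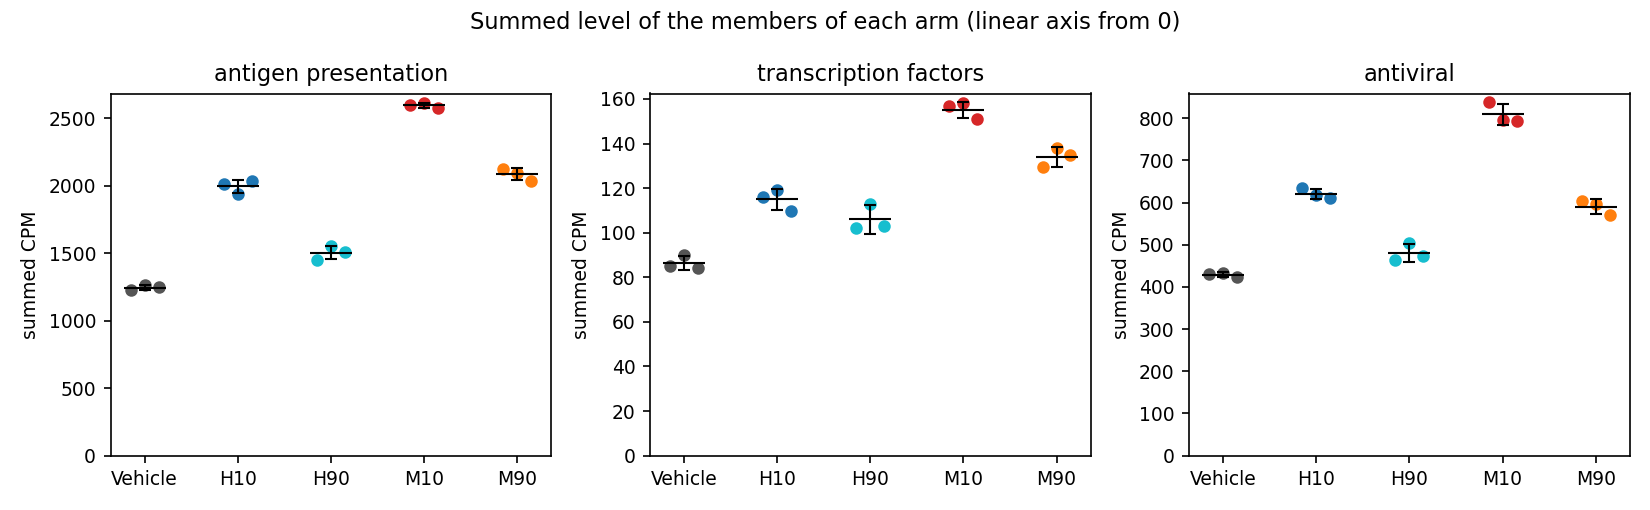
Summed CPM of the members of each arm in each library (points), with the group mean and SD (bars, n = 3 libraries), on linear axes from 0. Antigen presentation sums to 1225 to 1263 CPM in vehicle and to 2579 to 2614 in M10, and M10 is highest and vehicle lowest in all 3 panels.

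The share of 12α-hydroxylated bile acids was addressed by comparing the 90% with the 10% pool of each species model. In H90 minus H10, 0 of 44 members were higher and 17 lower (background 18.2% and 18.4%, median -0.28), among them 7 of 13 of antigen presentation and 9 of 27 antiviral genes. In M90 minus M10, 2 were higher and 17 lower (21.3% and 20%, median -0.26), with 1 higher and 6 lower of antigen presentation and 1 higher and 10 lower antiviral genes. H2-Q1 was 3.34-fold lower in H90 than in H10 and 2.43-fold lower in M90 than in M10. H2-Q2 was 2.46-fold and 2.16-fold lower, Oasl1 1.58-fold and 1.88-fold lower, and H2-K1 1.32-fold and 1.28-fold lower. Oas3 was 3.36-fold lower in M90 than in M10, and the genes higher there were Psmb10 (log2 0.38) and Mx2 (1.32). Without M10 a or M90 b the call of Mx2 was lost (1.13 to 1.18).

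With library size as the only scaling these comparisons gave 2 higher and 13 lower members for the human-like and 5 higher and 12 lower for the mouse-like pools. With upper-quartile scaling they gave 2 and 16, and 5 and 15. The calls over all genes shifted upward too. With TMM 49.8% (human-like) and 51.6% (mouse-like) of them were higher, with library size 66.9% and 69.7%, and with upper-quartile scaling 59.3% and 65.4%. B2m, Parp9 and Dtx3l were called higher in M90 than in M10 as well, under both of these other scalings.

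The effect of the share differed between the species models for 5 members, by a test of the interaction, (M90 minus M10) minus (H90 minus H10). Of 44, 3 had a positive and 2 a negative value past the threshold, where 7.85% of all genes had a positive and 6.92% a negative one. Both shares of the members are below those of all genes, so their number is no more than the background. With library size or upper-quartile scaling the calls were 3 positive and 0 negative. For B2m the higher share went with log2 -0.21 in the human-like and 0.07 in the mouse-like pools, an interaction of 0.29 (SE 0.0629, adjusted p = 0.0012), which was called in each fit without 1 library. For H2-Q1 both were lower, and less so in the mouse-like pools (interaction 0.46, SE 0.12, adjusted p = 0.00702), a call lost without H90 a (0.33). Dtx3l, an E3 ligase that works with PARP9, had 46.4, 49.2 and 44.5 CPM in vehicle, 53.4, 54.9 and 54.6 in H10, 47.4, 44.2 and 42.4 in H90, 47.1, 37.5 and 48.9 in M10, and 52.4, 48.2 and 47.2 in M90. Its interaction of 0.42 (adjusted p = 0.0147) was lost without M10 b (0.32).

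The negative values were less firm. Trim25 fell more with the higher share in the mouse-like pools (interaction -0.23, adjusted p = 0.0439), a call lost in 10 of 15 fits without 1 library (vehicle a, H10 a, b or c, H90 a or b, M10 a or b, M90 b or c; -0.24 to -0.17). Isg15 had -2.06 (SE 0.722, adjusted p = 0.0489), lost in 11 of 15 such fits (all but H10 b, H90 a, M10 b and M90 b; -2.10 to -1.63). For the other 39 members a difference was not shown, and for H2-K1 the 95% interval of the interaction ran from -0.08 to 0.16.

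**Figure D5:**
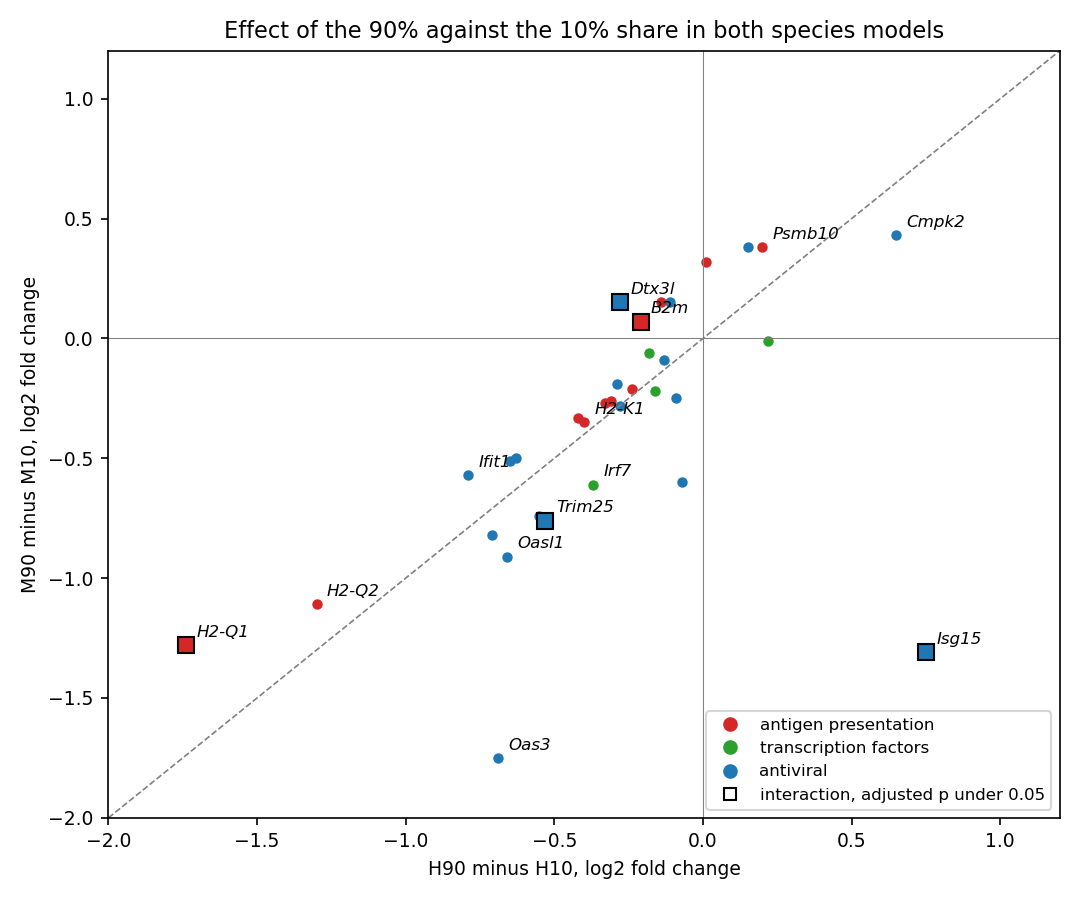
Log2 fold change of H90 minus H10 (horizontal axis) against M90 minus M10 (vertical axis) for the 32 members with a mean of at least 2 CPM and Isg15, coloured by arm; squares mark an interaction with adjusted p under 0.05, and the dashed line marks equal effects. Most points lie in the lower left, H2-Q1 at -1.74 and -1.28, and Isg15 stands apart at 0.75 and -1.31.

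The species models were compared at the same share. In M10 minus H10, 19 members were higher and 2 lower (background 18.2% and 18.1%, median 0.34), and in M90 minus H90, 17 were higher and 0 lower (19.2% and 19.5%, median 0.32). Of antigen presentation, 7 of 13 were higher in each. H2-Q1 was 1.81-fold higher in M10 than in H10 and 2.48-fold higher in M90 than in H90, H2-K1 1.36-fold and 1.41-fold, and Trim25 1.59-fold and 1.36-fold. Oas3 was 4.25-fold higher in M10 than in H10. The lower genes in M10 were Dtx3l (log2 -0.29, lost without M10 b at -0.18) and Psmb10 (-0.21, lost in 10 of 15 fits without 1 library: vehicle a and each H10, M10 and M90 library; -0.23 to -0.19). M10 and H10 belong to different library sets, and with a term for the set 10 members were called in place of 21. Over all genes 2025 were then called in place of 4779. Of the 10 members 5 were of antigen presentation, and Ifi27 turned sign (-0.07).

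Genes up and down the pathway were read from lists outside the 45. No interferon gene was expressed at a level that could be tested: 8 of 11 ligands had 0 counts in all libraries, and Ifne, Ifnk and Ifnz were at most 0.115 CPM. The counts that follow are for the mean of the pools, where 27.7% of all genes tested were higher and 30.3% lower. Of 9 receptor and kinase genes, 8 were higher and 0 lower. Ifnlr1, the specific chain of the type III interferon receptor, had 25.1, 27.2 and 24.8 CPM in vehicle, 50.3, 52.5 and 55.6 in H10, 27.2, 32.6 and 27.3 in H90, 84.3, 85.8 and 77 in M10, and 56.0, 57.8 and 52.4 in M90. H90 touched the vehicle range and was not called (log2 0.17), and the other 3 pools were (1.04, 1.68 and 1.10). In the mean of the pools Ifnlr1 rose by log2 1.0, the kinase gene Jak2 by 0.79, and the interferon gamma receptor chains Ifngr1 and Ifngr2 by 0.49 and 0.32.

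Of 12 signalling factors and brakes, 2 were higher and 4 lower, shares near those of all genes. Irf8, a factor best known from myeloid cells, fell by 0.85, and Irf2bp2, a corepressor of IRF2, fell by 0.61. Socs3, a feedback inhibitor of JAK kinases, rose by 0.66, and Stat3 rose by 0.34.

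Of 11 genes that sense nucleic acids or pass that signal on, 3 were higher and 2 lower, again near the shares of all genes. Tlr3, the receptor for double-stranded RNA, rose by 0.88, its adaptor Ticam1 by 0.39 and the RIG-I adaptor Mavs by 0.48. Mb21d1, the DNA sensor cGAS, fell by 1.75 in the mean of the 4 pools. Its levels were 8.86, 6.35 and 8.51 CPM in vehicle and, in M10 alone, 1.11, 1.71 and 0 CPM. The 34 tested of 48 further interferon-induced genes in the files gave 12 higher and 4 lower. Samd9l (0.83), Helz2 (0.66) and Lgals9 (0.65) were higher, while Ifitm2, which blocks the entry of virus, fell by 1.23.

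Peptide supply beyond the members gave 4 higher and 5 lower of 13, also near the shares of all genes. Psme2, a subunit of the proteasome activator PA28, rose by 0.59 and Pomp, a proteasome assembly factor, by 0.27. Erap1, which trims peptides in the endoplasmic reticulum, fell by 0.23, and Psme3 fell by 0.31. Other class I genes gave 6 higher and 1 lower of 12 tested. The 4 with the smallest adjusted p were H2-Bl (2.26), H2-T3 (0.73), Fcgrt (0.51) and H2-Q4 (0.45), of which the H2 genes can share reads with their relatives. Of 5 tested class II genes, 0 were higher and Ctss was lower (-0.30), while in M10 alone H2-Ab1 was higher (1.87, adjusted p = 0.013). The defining class II genes were near 0: Cd74 was at most 0.754 CPM and H2-Eb1 at most 0.745 CPM, with H2-Ab1 at 0.339 to 2.64 CPM.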

How the data were processed

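RNA of 15 libraries was sequenced after poly-A selection and TruSeq preparation, per the labels' protocols. The authors deposited raw read counts per gene symbol. The submitters' processing notes name featureCounts 1.5.0-p3, STAR 2.5.2b, bcl2fastq 2.17 and build mm10 (GRCm38). Annotation, strand setting and the treatment of reads that fit several genes were not given in the sources used here. Overlapping and antisense genes can therefore not be told apart.

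In R 4.3.3, edgeR 4.0.16 gave two-sided, robust quasi-likelihood F tests for the 13159 genes that filterByExpr left, with TMM scaling. One model held all 5 groups (residual degrees of freedom: 10). P-values were adjusted over all tested genes after Benjamini and Hochberg, with a threshold of 0.05. Standard errors and 95% intervals come from that test and hold the spread between libraries. Total counts of 11245807 to 28989526 set the precision of low genes.

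The members, lists and rule for named genes were chosen with earlier results of these data known. The rule took 13 members with values in every library, plus, in each arm, the genes with the 3 smallest adjusted p when all pools are averaged and the 2 smallest for the interaction. Each further list gave up to 4 genes. Other members that are named were chosen after their values were seen. Some genes of the lists are not reported here.

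Gene positions are from GENCODE vM21, promoters from RefSeq (GRCm38.p6). Alternatives were other scalings and filters, limma 3.58.1 (voom), DESeq2 1.42.0, a replicate block, fits of the groups compared and leaving out each library. A term for library set (split at 10 CPM of Mup20, by library size), fits within 1 set and voom with a weight per group were chosen after seeing the data. The pipeline was tested on simulated data. Plots used matplotlib 3.10.9.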

Additional observations from a re-analysis of the deposited data

Results flagged for a closer look

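The effect of the 90% against the 10% share of 12α-hydroxylated bile acids differed between the mouse-like and the human-like pools, by the interaction test of edgeR (adjusted p under 0.05 over all genes), for 5 of the 44 members tested. The difference, mouse-like minus human-like on the log2 scale, was 0.46 for H2-Q1, 0.29 for B2m, 0.42 for Dtx3l, -0.23 for Trim25 and -2.06 for Isg15. In a test across all genes 7.85% had a positive and 6.92% a negative value past the same threshold. The members' shares were below both, so 5 calls are no more than the background. With a term for library set 3 members were called, all positive and all of antigen presentation.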

How the results depend on the processing

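The counts of members called stayed within 1.5 times the values in the report except in 3 comparisons. For the interaction 3 members were called in place of 5 with upper-quartile scaling, with library size as the only scaling, with non-robust shrinkage and with a term for library set. H90 minus vehicle gave 7 in place of 16 with that term and 7 within 1 library set, where H90 a is the one H90 library, so the lone sample is assumed to vary like the other groups. M10 minus H10 gave 10 in place of 21 with the term. Calls over all genes fell with it as well, from 2840 to 1069 in H90 minus vehicle and from 4779 to 2025 in M10 minus H10. The sign of 6 values turned with the term for library set: Oas2 (-1.86), Rsad2 (-3.75) and Parp14 (-0.09) in M10 and Ifit1 (-0.11) in M90, each against vehicle, Parp14 (-0.06) in the mean of the pools, and Ifi27 (-0.07) in M10 minus H10. That term is set by H90 a against H90 b and c, and H90 a is at 0 for Oas2 and Rsad2, so these fitted sizes have no meaning. For the other values the cause was not tested.

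Leaving out 1 library gave 21 to 23 members called in H10, 11 to 16 in H90, 26 to 33 in M10, 19 to 23 in M90 and 22 to 27 in the mean of the pools, 14 to 19 in H90 minus H10, 15 to 19 in M90 minus M10, 17 to 22 in M10 minus H10, 13 to 19 in M90 minus H90 and 3 to 5 for the interaction. The replicate block gave 25 in place of 27 in the mean of the pools (Isg15 and Usp18 were lost), called Rsad2 and lost Oas1a in M10 minus H10, and changed no other call. Libraries of the same letter had residual profiles that correlated at -0.0237 to 0.0829 (median 0.00499), and 11 of 15 correlated best with their own letter, a hint of pairing from the data and not from the design. For the 13 members with a mean under 2 CPM, depth sets the precision. Of these 12 were tested, and 1 was called in H10, 1 in H90, 6 in M10, 2 in M90 and 4 in the mean of the pools, all of them higher. Of all genes tested 24%, 11.7%, 31.2%, 26.2% and 27.7% were higher in the same order. The 6 in M10 include Oas2, which passed the filter through M10 alone.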
